A study of Mus musculus with 6 samples.

Results

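Trem2, Tyrobp, Spp1, Gpnmb, Cd9, Fabp5 and Lgals3 are genes by which lipid-associated macrophages are commonly recognised, and their transcripts were measured here by RNA-seq in whole gonadal white adipose tissue (gWAT), a visceral depot that in male mice lies against the epididymis. The 7 genes were taken by symbol, through the NCBI gene identifier, from the 19790 genes of the deposited count table, and all 7 were found and had enough counts to be tested. The mice were wild-type C57BL/6. Normal chow (NCD) was given to 3 of them and a high-fat diet (HFD) to the other 3, in both cases for 8 weeks, and the labels name no transgene and no other agent for any of the 6. The labels give an age of 6 weeks at the start of the diets and the methods give 8 weeks. The methods name male mice for the study's C57BL/6 animals.

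In obese fat, macrophages gather around dying adipocytes and take up the lipid these release. The cells that do so turn on a shared set of genes for sensing lipid, for digesting it in lysosomes and for secreting matrix proteins. TREM2 is the lipid-sensing receptor of this set, and TYROBP (also called DAP12) is the adaptor that carries its signal into the cell, since the cytoplasmic tail of TREM2 has no signalling motif of its own. Spp1 encodes osteopontin, a secreted ligand of CD44 and of integrins. Gpnmb encodes a glycoprotein of lysosomal and plasma membranes, Cd9 a tetraspanin, Fabp5 a cytosolic fatty acid carrier, and Lgals3 galectin-3, a lectin that binds β-galactosides and gathers at damaged lysosomes. None of these genes is used by macrophages alone. CD9 is also abundant in epithelia and smooth muscle, FABP5 is made by adipocytes and endothelium, and osteopontin by several epithelia.

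The genes lie on different chromosomes apart from Gpnmb and Cd9, which share chromosome 6 (assembly GRCm38, the build named in the labels). Trem2 (NCBI gene 83433) spans chr17:48346401-48352276 on the plus strand, Tyrobp (22177) chr7:30413782-30417582, Spp1 (20750) chr5:104435111-104441053, Gpnmb (93695) chr6:49036518-49058182, Fabp5 (16592) chr3:10012585-10016610 and Lgals3 (16854) chr14:47373860-47386167, all on the plus strand, and Cd9 (12527) spans chr6:125460266-125494760 on the minus strand. The annotation places Gm26728 and Gm28809 on the opposite strand within Cd9, and a provisional transcript, Gm42793, on the strand of Spp1. The strand setting of the authors' counting is not given in the sources used, so reads of Cd9 and of its antisense genes cannot be told apart. One processed copy, Cd9-ps, is named in the annotation and has no row of its own in the table.

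The stretches just before the transcription start of 3 of these genes are shown because the genes differed in how they varied among HFD-fed mice, as described below: Trem2 and Gpnmb were highest in the same mouse, and Spp1 was lowest in it. Each is the 250 bases before the start, read 5′ to 3′ on the gene's strand, from RefSeq on GRCm38.p6 (chr17:48346151-48346400, chr5:104434861-104435110 and chr6:49036268-49036517). Capitals mark matches, on either strand, to the 4 motifs searched: TGANTCA (AP-1), CACGTG (the E-box of lysosomal genes), CATGTG (the M-box core) and AGGAAGT (an ETS site of the type bound by PU.1).
Trem2: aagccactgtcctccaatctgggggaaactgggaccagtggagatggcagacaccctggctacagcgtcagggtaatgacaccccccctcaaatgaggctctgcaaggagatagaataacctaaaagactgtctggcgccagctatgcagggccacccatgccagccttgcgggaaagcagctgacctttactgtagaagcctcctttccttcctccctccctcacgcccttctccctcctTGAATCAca
Spp1: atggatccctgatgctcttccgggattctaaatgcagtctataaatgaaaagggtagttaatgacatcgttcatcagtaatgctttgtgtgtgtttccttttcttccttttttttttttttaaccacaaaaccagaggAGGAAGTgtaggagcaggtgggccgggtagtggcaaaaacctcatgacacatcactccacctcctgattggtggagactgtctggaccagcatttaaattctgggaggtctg
Gpnmb: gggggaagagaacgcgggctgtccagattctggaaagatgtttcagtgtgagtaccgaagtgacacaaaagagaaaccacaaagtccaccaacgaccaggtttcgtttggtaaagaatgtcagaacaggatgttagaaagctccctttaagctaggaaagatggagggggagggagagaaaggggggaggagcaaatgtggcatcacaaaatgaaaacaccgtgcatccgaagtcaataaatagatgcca
The AP-1 letters begin 9 bases before the start of Trem2, and the ETS letters begin 112 bases before the start of Spp1. The window of Gpnmb held none of the 4 motifs. Over the 32851 windows of the same length in the table, 6.75% held TGANTCA, 6.02% CACGTG, 12.3% CATGTG and 7.69% AGGAAGT. The Cd9 window held 1 CATGTG match and the Lgals3 window none, and Tyrobp and Fabp5 had no window in the table. A match is a description of the letters and was not tested for binding.

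Depth was 49575113 to 66360046 counts per mouse. Levels are given as CPM, counts scaled to library size with edgeR's TMM factors, unless FPKM is named. Adipoq, the adipocyte hormone adiponectin, was abundant in every mouse, at 531.8 to 2695 CPM. NCD replicate 1 stood apart. In this mouse 58.6% of the counts fell on 11 secretory genes of the seminal vesicle, against 11.2% and 2.30% in NCD replicates 2 and 3 and at most 8 counts in any HFD-fed mouse, and its TMM factor was 0.496 against 1.02 to 1.27 in the others. Results are therefore given with and without it. Differences between the diets were tested with edgeR's quasi-likelihood test and Benjamini-Hochberg adjustment over all genes tested, at an adjusted p under 0.05. SE is the standard error of the log2 fold change.

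HFD feeding went with higher transcript levels of 5 of the 7 genes. Spp1, Gpnmb, Trem2, Lgals3 and Tyrobp rose, by 210-, 27.6-, 12.8-, 10.2- and 6.38-fold in the fit, and Fabp5 and Cd9 did not pass the test. Over all 15241 genes tested, 5.58% were called higher. The median log2 fold change was 3.34 over the 7 genes and -0.08 over all genes tested. The same 5 genes passed without NCD replicate 1, against a background of 10.7% of 15510 genes. In whole tissue, fewer cells of a type and less RNA per cell cannot be told apart. The calls rested on all of the other 5 mice. No gene of the 7 passed edgeR's test when NCD replicate 2, NCD replicate 3 or any HFD-fed mouse was left out of the 6. The whole table lost nearly all its calls as well, with 2 to 7 genes called in each of these fits. Of the 7, 5 or 6 then had an unadjusted p under 0.05. With all 6 mice, 4524 of the 15241 genes had this in either direction. The log2 fold changes of the 5 genes called with all 6 mice stayed positive, and their adjusted p ran from 0.0548 to 0.118 by edgeR. Left-out mice moved 4 of the folds by more than 1.5 times. The log2 fold change was 6.95 for Spp1 without HFD replicate 3, and 3.40 for Gpnmb, 3.09 for Trem2 and 2.75 for Lgals3 without HFD replicate 1. From the 5 mice without NCD replicate 1, 4 genes passed, all but Spp1, when HFD replicate 2 or 3 was left out too. In these fits 985 of 15321 and 1038 of 15375 genes were called higher. Leaving out NCD replicate 2 or 3 as well left a single NCD-fed mouse, which cannot show the spread on NCD.

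**Figure D1:**
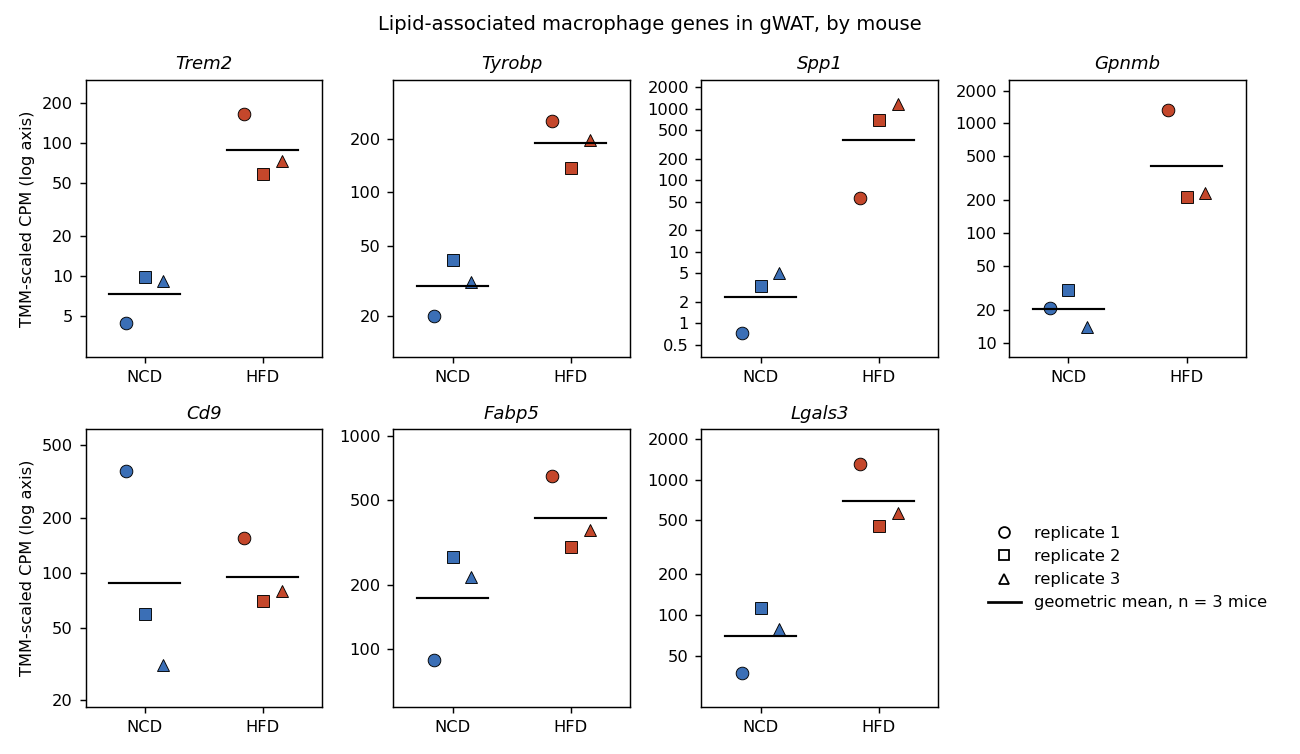
Level of each of the 7 genes in each mouse, as TMM-scaled CPM on a log axis, by diet; symbols mark the replicate and lines the geometric mean of 3 mice. Every HFD-fed mouse lies above every NCD-fed mouse for 6 genes, and Cd9 overlaps because NCD replicate 1 has the highest value, 359 CPM.

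Trem2, the receptor, was measured at 4.38, 9.73 and 9.14 CPM in the NCD-fed mice, in the order of their replicate numbers, and at 166.6, 58.1 and 73.3 CPM in the HFD-fed mice. The diets did not overlap, and HFD replicate 1 was 2.87 and 2.27 times as high as HFD replicates 2 and 3. Means were 7.75 ± 2.93 CPM on NCD and 99.3 ± 58.8 CPM on HFD (SD, n = 3 mice each), and the log2 fold change was 3.68 (SE 0.54, adjusted p = 0.0235, edgeR). It was 3.41 without NCD replicate 1 (SE 0.53, adjusted p = 0.0131, edgeR). Counting error was small beside the spread between mice even for the lowest value, since 144 counts in NCD replicate 1 give an exact 95% Poisson interval of 3.70 to 5.16 CPM, which covers counting error only.

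Tyrobp, the adaptor shared by TREM2 and other activating myeloid receptors, was at 19.97, 41.4 and 31.1 CPM on NCD and rose to 253.9, 137.7 and 198.4 CPM on HFD. The spread among HFD-fed mice was smaller than for Trem2, with HFD replicate 1 at 1.84 and 1.28 times the other HFD-fed mice. The log2 fold change was 2.67 (SE 0.36, adjusted p = 0.0219, edgeR), and 2.45 (SE 0.31, adjusted p = 0.00861, edgeR) without NCD replicate 1. Per length and within a mouse, the ratio of Trem2 to Tyrobp in FPKM (counts scaled to exon length and library total) was 0.108, 0.116 and 0.145 in the NCD replicates and 0.324, 0.208 and 0.182 in the HFD replicates. The ratio was thus higher in every HFD-fed mouse than in any NCD-fed mouse (p = 0.1 by an exact permutation test, two-sided, which with groups of 3 can go no lower).

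Spp1, osteopontin, had the largest fold of the 7. It was low on NCD, at 0.731, 3.36 and 4.99 CPM, from 24, 201 and 268 counts. On HFD it reached 57.1, 695.5 and 1171 CPM. All HFD-fed mice were above all NCD-fed mice, and HFD replicates 2 and 3 were 12.2 and 20.5 times as high as HFD replicate 1, the mouse in which the other 6 genes were highest. The log2 fold change was 7.71 (SE 1.43, adjusted p = 0.0355, edgeR), and 7.28 (SE 1.5, adjusted p = 0.0260, edgeR) without NCD replicate 1.

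Gpnmb, the lysosomal glycoprotein, was at 20.6, 30.0 and 13.9 CPM on NCD and at 1331, 214.8 and 234.1 CPM on HFD. HFD replicate 1 was 6.19 and 5.68 times as high as the other HFD-fed mice. The log2 fold change was 4.79 (SE 0.91, adjusted p = 0.0364, edgeR), and 4.77 (SE 1.11, adjusted p = 0.0357, edgeR) without NCD replicate 1. The FPKM ratio of Spp1 to Gpnmb, between 0.0974 and 0.985 on NCD, was 0.118 in HFD replicate 1 and 8.87 and 13.7 in HFD replicates 2 and 3. The diets overlapped in this ratio.

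Lgals3, galectin-3, was at 37.5, 113.4 and 79.3 CPM on NCD and at 1311, 454.6 and 570.5 CPM on HFD, so that the lowest HFD-fed mouse was well above the highest NCD-fed mouse. The log2 fold change was 3.34 (SE 0.61, adjusted p = 0.0341, edgeR), and 3.03 (SE 0.55, adjusted p = 0.0188, edgeR) without NCD replicate 1.

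Fabp5, the fatty acid carrier, did not pass. It was already abundant on NCD, at 88.8, 271.5 and 218.4 CPM, and stood at 645.5, 299.7 and 362.1 CPM on HFD. Every HFD-fed mouse was above every NCD-fed mouse, with replicate 2 of each diet the nearest pair. The log2 fold change was 1.18 (SE 0.50, adjusted p = 0.177, edgeR), and 0.84 (SE 0.36, adjusted p = 0.149, edgeR) without NCD replicate 1.

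Cd9, the tetraspanin, had no stable direction. Its level was 358.8, 59.6 and 31.2 CPM on NCD and 155.3, 69.7 and 79.5 CPM on HFD. NCD replicate 1 was 6.02 and 11.5 times as high as the other NCD-fed mice, and it is the mouse rich in seminal vesicle RNA. With all 6 mice the log2 fold change was -0.56 (SE 0.91, adjusted p = 0.707, edgeR), and with total counts in place of TMM it was 0.43. Without NCD replicate 1 it was 1.17 (SE 0.45, adjusted p = 0.118, edgeR), and each HFD-fed mouse was then above both NCD-fed mice. Markers of other tissues moved with Cd9 among the NCD replicates. The summed level of 8 epithelial genes was 1312, 131.7 and 31.1 CPM in the 3 NCD-fed mice, in replicate order, against 16.9 to 81.8 CPM on HFD. That of 6 smooth muscle genes was 5911, 743.7 and 260.9 CPM against 254.6 to 353.2 CPM. Epcam, which defines epithelium, was at 115, 11.3 and 2.74 CPM in the NCD replicates and at most 0.408 CPM on HFD. The part of these tissues in the level of Cd9 was not tested.

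**Figure D2:**
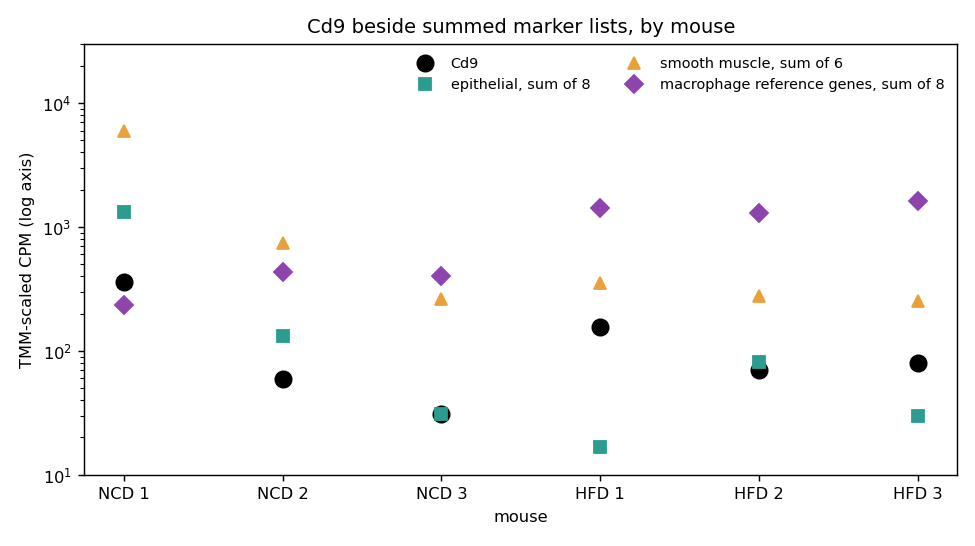
Level of Cd9 in each mouse beside the summed levels of 8 epithelial, 6 smooth muscle and 8 macrophage reference genes, as TMM-scaled CPM on a log axis. Cd9 is highest in NCD replicate 1, where the epithelial and smooth muscle sums are also highest and the macrophage sum is lowest.

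Counting mice instead of testing, every HFD-fed mouse was above every NCD-fed mouse for 6 of the 7 genes, where 20.5% of all genes tested showed this. It held for all 7 when NCD replicate 1 was set aside, and for 28.0% of all genes tested.

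Compared per length, the order of the genes changed with diet. In NCD replicates 2 and 3 the order in FPKM was the same, with Fabp5 first (281 and 237.2 FPKM), then Tyrobp, Lgals3, Cd9, Trem2 and Gpnmb, and Spp1 last (2.08 and 3.24 FPKM). In NCD replicate 1 Cd9 was first, at 144.7 FPKM. In HFD replicates 2 and 3 Spp1 was first (530.5 and 899 FPKM), followed by Fabp5, Lgals3, Tyrobp, Cd9, Trem2 and Gpnmb. In HFD replicate 1 Lgals3 led with 954.1 FPKM and Spp1 was again last with 40.1 FPKM. Over the 3 HFD-fed mice the means of Lgals3 (589 ± 319 FPKM, SD, n = 3 mice), Fabp5 (534 ± 197), Spp1 (490 ± 431) and Tyrobp (424 ± 108) lay within the spread of their neighbours, as did those of Gpnmb (155 ± 161), Trem2 (104.5 ± 56.1) and Cd9 (99.9 ± 40.5). On NCD the mean of Fabp5 was 187.6 ± 125.8 FPKM (SD, n = 3 mice), and those of Cd9, Tyrobp and Lgals3, from 46.0 to 73.9 FPKM, were within each other's spread. Trem2, Gpnmb and Spp1 were at 6.39 ± 3.89, 4.11 ± 2.37 and 1.85 ± 1.53 FPKM. These NCD means include NCD replicate 1. Seminal vesicle genes make up 58.6% of its library total, which lowers its FPKM for other genes. Fabp5, for one, was at 44.6 FPKM in it. Cd9 had a higher mean than Tyrobp and Lgals3 through this mouse, and was below both in NCD replicates 2 and 3.

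Most general macrophage genes were also higher on HFD, so the 7 genes were next set against a list of them. Of 8 reference genes (Adgre1, Csf1r, Fcgr1, Mertk, Aif1, Itgam, Ptprc and Cd14), 5 passed the test upwards and none downwards with all 6 mice, with a median log2 fold change of 2.33. Adgre1, which encodes the macrophage surface marker F4/80, rose by 2.86 on the log2 scale (SE 0.43, adjusted p = 0.0238, edgeR), and Fcgr1, the high-affinity IgG receptor, rose by 3.16 (SE 0.56, adjusted p = 0.0320, edgeR). Mertk, named after its values were seen, had the smallest change, 0.23 (SE 0.24, adjusted p = 0.545, edgeR), and its diets overlapped. The size of a difference relative to these genes therefore depends on which of them are used. The list is also not limited to macrophages, since Ptprc encodes CD45, which the paper used to label leukocytes. The geometric mean of the 8 genes was 22.1, 40.3 and 38.4 CPM in the NCD replicates and 111.9, 129.3 and 167.8 CPM in the HFD replicates.

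Per unit of this reference signal, 4 of the 7 genes were still higher on HFD. With the effective library size set to the geometric mean of the 8 genes, the log2 fold change was 5.69 for Spp1 (SE 1.04, adjusted p = 0.00241, edgeR), 2.88 for Gpnmb (SE 0.89, adjusted p = 0.0161), 1.81 for Trem2 (SE 0.53, adjusted p = 0.0130) and 1.503 for Lgals3 (SE 0.57, adjusted p = 0.0363). On this scale 1.01% of the 15241 genes tested were called higher and 82.4% lower, and the median gene stood at -2.16, so that the scale itself places most transcripts of the tissue lower. Of these genes 12866 had an unadjusted p under 0.05 by edgeR, against 4524 with TMM scaling. The adjustment was therefore milder here, and the same threshold was easier to pass. Before adjustment the edgeR p of Trem2 was 0.00928, against 0.00044 with TMM scaling. Tyrobp, at 0.72 (SE 0.38, adjusted p = 0.111), and Fabp5, at -0.68 (SE 0.49, adjusted p = 0.219), did not pass. Cd9 was lower, at -2.95 (SE 1.12, adjusted p = 0.0369), but at -0.52 (SE 0.48, adjusted p = 0.334) without NCD replicate 1.

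The call for Lgals3 depended on the mice. Its adjusted p was 0.0550, 0.0516, 0.0800 and 0.159 by edgeR without NCD replicate 1, NCD replicate 2, NCD replicate 3 and HFD replicate 1, and that of Gpnmb was 0.0584 without HFD replicate 1. The sizes rested on HFD replicate 1 as well. Without it the log2 fold change relative to the reference genes was 1.17 for Gpnmb, 0.97 for Trem2, 0.66 for Lgals3 and -3.61 for Cd9. The count was 2 genes, Spp1 and Trem2, without HFD replicate 1, where 133 of the 15713 genes tested were called higher. It was 3 genes, Spp1, Gpnmb and Trem2, without NCD replicate 1, where 1.30% of the 15510 genes tested were called higher. Against Adgre1 alone only Spp1 and Gpnmb passed, and against Csf1r alone Tyrobp passed as well. Over the 15241 genes tested, 61 were called higher against Adgre1 alone and 217 against Csf1r alone.

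**Figure D3:**
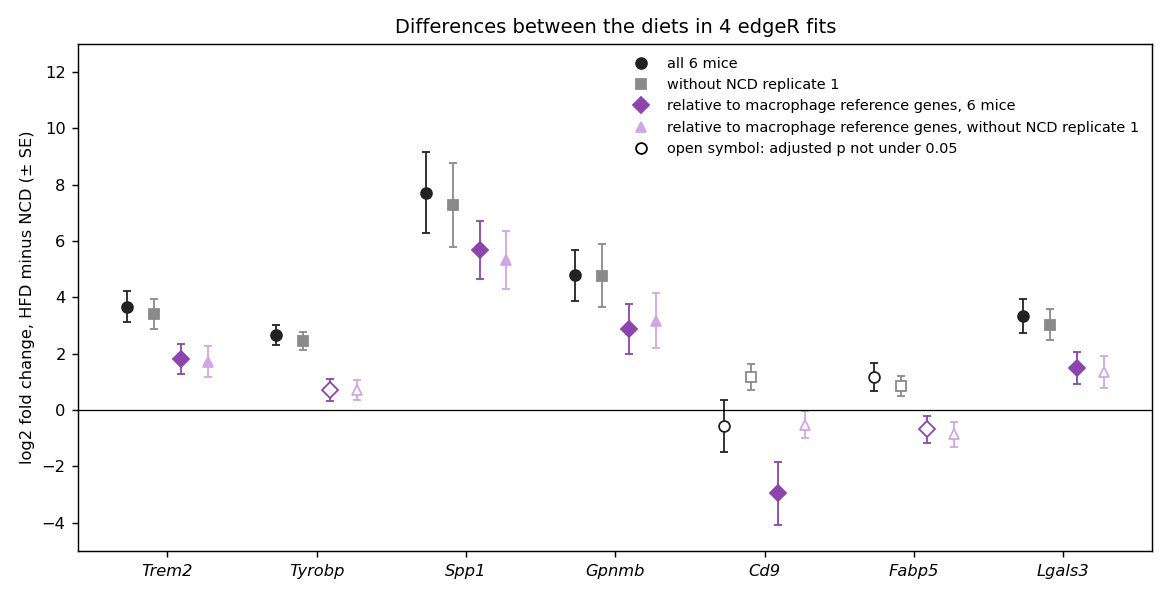
Log2 fold change, HFD minus NCD, with its standard error for each gene in 4 edgeR fits: all 6 mice, without NCD replicate 1, and both again relative to 8 macrophage reference genes; open symbols did not pass an adjusted p of 0.05. Spp1, Gpnmb and Trem2 pass in all 4, and Cd9 changes sign between fits.

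The values by mouse show the same order. Relative to the geometric mean of the reference genes, Trem2 was 0.198, 0.241 and 0.238 in the NCD replicates, a narrow range, and 1.49, 0.449 and 0.436 in the HFD replicates. Gpnmb was 0.930, 0.743 and 0.361 and then 11.9, 1.66 and 1.40, and Spp1 was 0.0331, 0.0834 and 0.130 and then 0.510, 5.38 and 6.98. The reference mean itself was lowest in HFD replicate 1 among the HFD-fed mice, at 111.9 CPM, which raises the ratios of that mouse. Of the 8 reference genes, 5 were lowest and 3 highest in it. Trem2, Tyrobp, Spp1, Gpnmb and Lgals3 did not overlap between the diets in this ratio, where 1.52% of all genes tested had every HFD-fed mouse above every NCD-fed mouse on the same scale. For Tyrobp the gap was small, from 1.03 in NCD replicate 2 to 1.07 in HFD replicate 2. Fabp5 overlapped, at 4.02, 6.74 and 5.69 on NCD and 5.77, 2.32 and 2.16 on HFD.

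**Figure D4:**
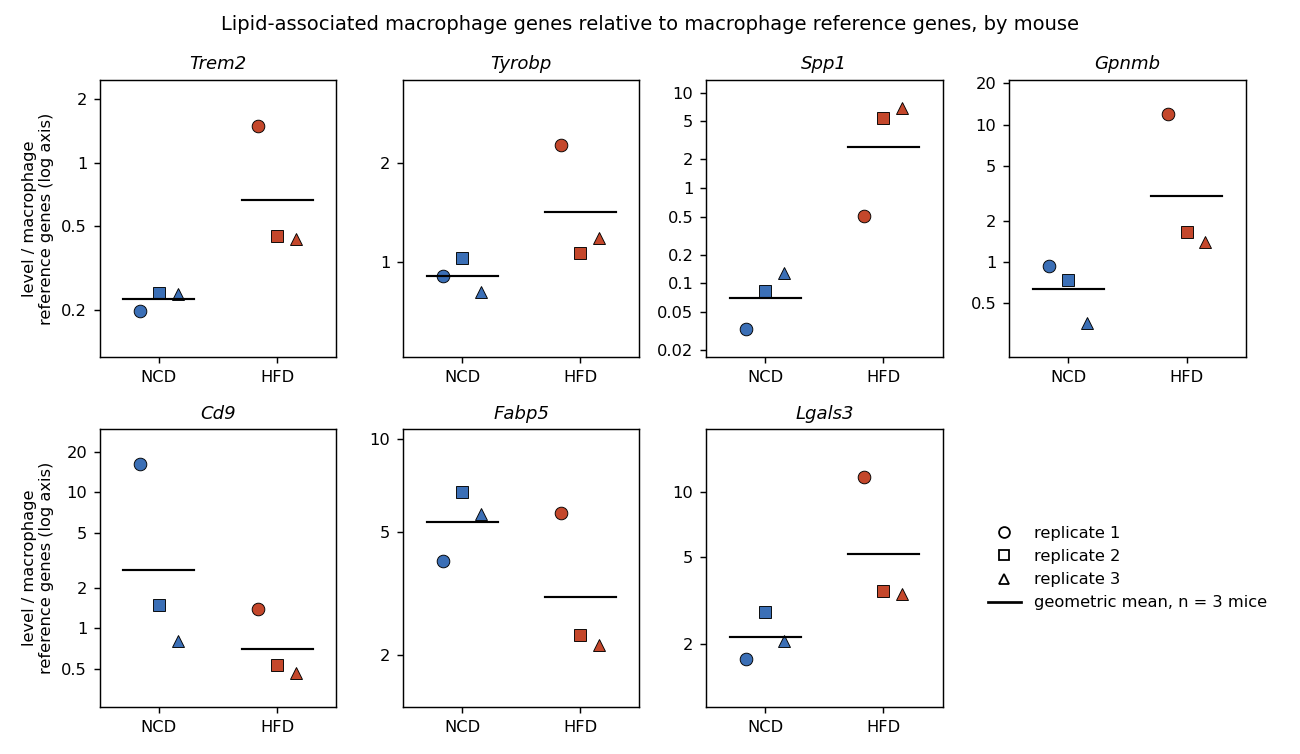
Level of each gene divided by the geometric mean of 8 macrophage reference genes in the same mouse, on a log axis, by diet; symbols mark the replicate and lines the geometric mean of 3 mice. Trem2, Tyrobp, Spp1, Gpnmb and Lgals3 do not overlap between the diets, and Fabp5 and Cd9 do.

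HFD-fed mice were not alike. HFD replicate 1 had the highest level of the 3 for 6 of the 7 genes, and for 19 of 20 further genes reported for lipid-associated macrophages (the exception was Cd63), whereas it was highest for 39.5% and lowest for 37.4% of all genes tested. These counts describe 1 mouse and were not tested. The size of the gap varied within that list, as 4 genes named after their values were seen show. Mmp12, macrophage elastase, was at 771.2, 77.8 and 75.6 CPM in HFD replicates 1, 2 and 3, and Ctsk, cathepsin K, at 144.4, 29.0 and 29.7 CPM. Atp6v0d2, a subunit of the vacuolar proton pump, was at 283.5, 33.0 and 44.9 CPM. Ctsb, cathepsin B, differed less, at 5051, 3493 and 4153 CPM.

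Spp1 was lowest in this mouse, and so were neutrophil genes. Of the 4 neutrophil markers with enough counts all were lowest in HFD replicate 1, and the summed level of the list of 6 was 20.6, 148.3 and 400.8 CPM in HFD replicates 1, 2 and 3 against 4.202 to 9.35 CPM on NCD. S100a9, a calcium-binding protein of neutrophils and monocytes, was at 0.416, 50.7 and 164.4 CPM. Ly6g, which defines mouse neutrophils, was at 0 in HFD replicate 1 and at most 0.175 CPM in the other HFD-fed mice. Retnlg and Mmp8, of the same list and named after their values were seen, followed the order of Spp1 among HFD-fed mice. Retnlg was at 0 in every NCD-fed mouse and at 0.1387, 1.762 and 5.994 CPM on HFD. Mmp8 was at most 0.1116 CPM on NCD and at 0.4161, 4.603 and 8.529 CPM on HFD. Mmp8 did not pass, at a log2 fold change of 6.745 (SE 1.64, adjusted p = 0.0604, edgeR). Within the reference genes, Fcgr1 (65.4, 146.2 and 236.4 CPM) and Cd14, the endotoxin co-receptor (39.95, 74.7 and 123.8 CPM), followed the order of Spp1, and Adgre1 (418.3, 210.5 and 232.9 CPM) that of Trem2. The part of neutrophils or of other myeloid cells in the level of Spp1 was not tested.

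**Figure D5:**
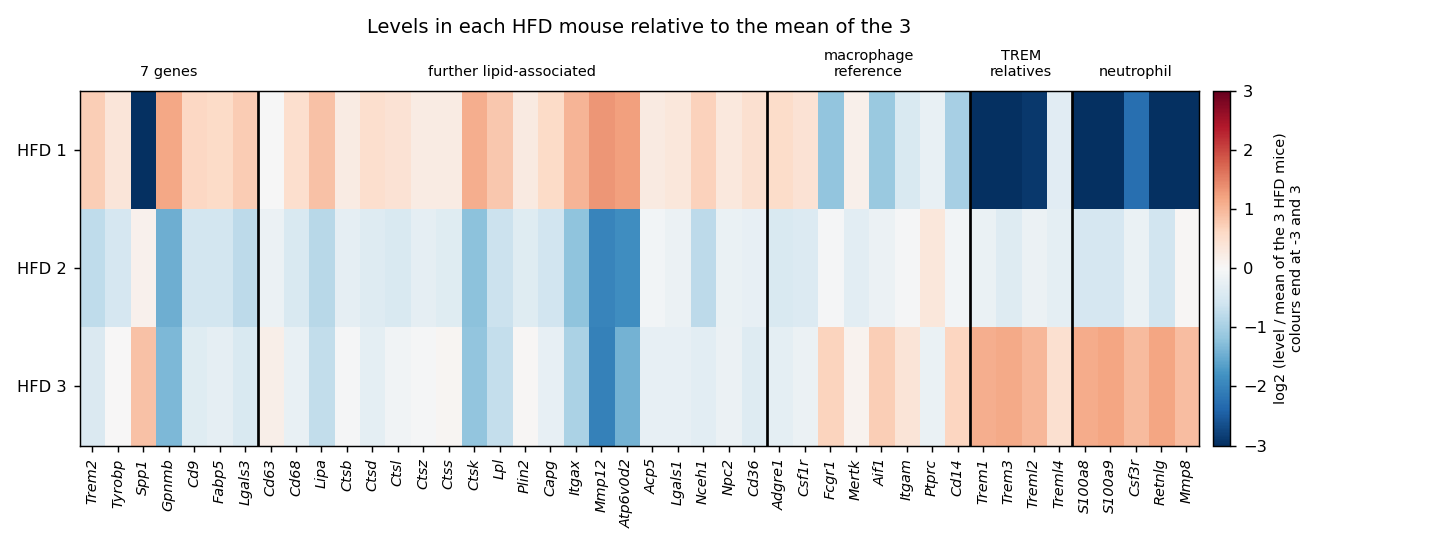
Level of each gene in each HFD-fed mouse as the log2 of its ratio to the mean of the 3 HFD-fed mice, red higher and blue lower, for the 7 genes, further lipid-associated macrophage genes, macrophage reference genes, TREM receptor relatives and neutrophil genes with a mean of at least 1 CPM on HFD. HFD replicate 1 is above the mean for 6 of the 7 genes and below it for Spp1 and the neutrophil genes.

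The profile of Trem2 over the 6 mice was compared with that of each of the 13594 tested genes of at least 1 CPM on average, as the root-mean-square difference of log2(CPM + 0.5) after centring each gene. The 5 nearest genes were Zfyve28 (0.13), Cd300lb (0.17), Cd300a (0.18), Lgals3 (0.19) and Peg10 (0.20), where a smaller value means a closer profile. Cd300lb and Cd300a encode paired immunoglobulin-like receptors of myeloid cells that bind lipids. Cd300lb was at 2.71, 8.00 and 7.46 CPM on NCD and at 114.3, 50.6 and 64.9 CPM on HFD, close to Trem2 in both level and order. Of the other members, Tyrobp ranked 56th (0.50), Gpnmb 140th (0.72), Fabp5 722nd (1.16), Cd9 11406th (2.19) and Spp1 12576th (2.48). The measure centres each gene but does not scale the size of its changes. A gene with a much larger fold than Trem2, such as Spp1, therefore ranks far off. The genes nearest to Spp1, a comparison added after the data were seen, were much farther from it. They were Cxcl2 (1.00), a neutrophil-attracting chemokine, Arg1 (1.19), arginase of alternatively activated macrophages, S100a8 (1.44), S100a9 (1.48) and Ptx3 (1.57). By distance from Spp1, Trem2 ranked 121st, Lgals3 160th, Tyrobp 246th, Gpnmb 264th, Fabp5 1537th and Cd9 11897th. Arg1 was at 0.365, 3.71 and 9.40 CPM on NCD and at 12.7, 158.4 and 288.2 CPM on HFD.

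Genes of the TREM2 pathway were followed from ligand to signal. Of 12 such genes 7 rose and none fell with all 6 mice, with a median log2 fold change of 1.81, and 9 rose and none fell without NCD replicate 1. Among the 7 that passed with all 6 mice, the largest rises were those of Syk and Btk. Card9, named after its values were seen, did not pass, at a log2 fold change of 2.71 (SE 0.62, adjusted p = 0.0533, edgeR). Syk, the kinase that binds phosphorylated TYROBP, rose from 14.5, 35.1 and 31.9 CPM to 230.5, 134.2 and 179.4 CPM (log2 fold change 2.74, SE 0.40, adjusted p = 0.0235, edgeR), and Btk, a kinase downstream of it, rose by 2.37 on the log2 scale (SE 0.37, adjusted p = 0.0249, edgeR). Apoe, a lipoprotein ligand of TREM2 that adipocytes also make in quantity, is named here after its values were seen, and stood at 911.6, 2973 and 2984 CPM on NCD and 2770, 2610 and 2173 CPM on HFD (log2 fold change 0.14, SE 0.54, adjusted p = 0.883, edgeR). Relative to the macrophage reference genes edgeR called none of the 12 higher, also at an unadjusted p under 0.05 (0 genes), and 4 lower, where 82.4% of all genes tested were called lower on that scale.

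Among other genes reported for lipid-associated macrophages, 6 of 20 rose and none fell, with a median log2 fold change of 1.89, and 12 rose and none fell without NCD replicate 1. Lpl went the other way without passing, at -1.48 with all 6 mice. It was -1.93 without NCD replicate 1 (unadjusted p = 0.0182, adjusted p = 0.0704, edgeR). Lgals1, Acp5 and Cd36 were then at -0.39, -0.35 and -0.17. These genes are named after their values were seen. With all 6 mice, neither this list nor the TREM2 pathway list had a gene lower on HFD at an unadjusted p under 0.05 in edgeR (0 genes) or called lower by DESeq2 after adjustment (0 genes). At an unadjusted p under 0.05 DESeq2 gave 1 gene of the 20 lower. Atp6v0d2 rose by 5.76 on the log2 scale (SE 1.14, adjusted p = 0.0398, edgeR), from 0.944, 3.83 and 1.82 CPM on NCD to the levels given above. Its log2 fold change was 4.14 without HFD replicate 1 and 6.43 without NCD replicate 2. Ctss, the cathepsin S of antigen-presenting cells, rose by 3.20 (SE 0.35, adjusted p = 0.0212, edgeR). Relative to the macrophage reference genes 4 of the 20 were higher and 5 lower, against 1.01% higher and 82.4% lower over all genes tested.

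The closest relatives of the 7 genes were counted in the same way. Of 5 relatives of TREM2, 4 had enough counts and 1 passed upwards, Treml4, a receptor of macrophages and dendritic cells, from at most 0.409 CPM on NCD to 2.27, 2.35 and 4.03 CPM on HFD (log2 fold change 3.14, SE 0.51, adjusted p = 0.0271, edgeR). Trem1 and Treml2, named after their values were seen, did not pass. Their log2 fold changes were 5.10 (SE 1.81, adjusted p = 0.128, edgeR) and 3.35 (SE 0.94, adjusted p = 0.0798, edgeR), and their diets overlapped. At an unadjusted p under 0.05 edgeR gave 3 of these relatives higher, and DESeq2 called 3 higher. Of 6 other galectins 2 rose, Lgals7 by 2.23 on the log2 scale (SE 0.41, adjusted p = 0.0348, edgeR) and Lgals8, which detects damaged vesicles, by 0.79 (SE 0.13, adjusted p = 0.0277, edgeR). Of 8 tetraspanins 2 rose, both leukocyte proteins, Cd53 by 2.76 (SE 0.40, adjusted p = 0.0231, edgeR) and Cd37 by 2.05 (SE 0.30, adjusted p = 0.0235, edgeR). None of the 3 other fatty acid-binding proteins with enough counts passed in edgeR (0 at an unadjusted p under 0.05) or DESeq2 (0 after adjustment, 1 higher at an unadjusted p under 0.05). The edgeR log2 fold changes were 2.85 for Fabp7, 0.40 for Fabp4 and -0.63 for Fabp3, which was 1.57 without NCD replicate 1. Pmel, the pigment-cell relative of Gpnmb, was between 0.351 and 0.935 CPM in all 6 mice, with a log2 fold change of -0.12 (SE 0.47, adjusted p = 0.883, edgeR). Of 6 tested genes for relatives and receptors of osteopontin 3 rose, among them Cd44 by 3.14 (SE 0.38, adjusted p = 0.0212, edgeR) and Itga4, the integrin α4 chain, by 1.44 (SE 0.24, adjusted p = 0.0277, edgeR).

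Markers of other cells that use some of the 7 genes were counted in the same fit. Of 6 markers of resident macrophages 1 rose, Folr2, the folate receptor β, by 1.78 on the log2 scale (SE 0.29, adjusted p = 0.0277, edgeR). The others did not move together and are named after their values were seen. They were at 1.96 for Mrc1, 1.70 for Clec10a, 0.17 for Lyve1, -0.07 for Cd163 and -0.93 for Timd4. Without NCD replicate 1, 3 of the 6 rose and none fell (0 genes), with Timd4 at -1.30. Of 6 osteoclast markers, a cell type that also makes osteopontin and ATP6V0D2, 1 passed upwards, Atp6v0d2. At an unadjusted p under 0.05 edgeR gave 3 higher, and DESeq2 called 3 higher. Dcstamp and Ocstamp, which define fusing osteoclasts, were low. Ocstamp was at most 0.351 CPM on NCD and at 2.08, 0.551 and 1.05 CPM on HFD (log2 fold change 2.84, SE 1.08, adjusted p = 0.145, edgeR). Dcstamp was at most 1.07 CPM on NCD and at 8.10, 0.947 and 0.877 CPM on HFD, and its diets overlapped. The part of such cells in the 7 genes was not tested. Of 4 neutrophil genes with enough counts 1 rose, Csf3r, the G-CSF receptor, by 3.71 (SE 0.82, adjusted p = 0.0495, edgeR), and its adjusted p was 0.0533 without NCD replicate 1 and 0.140 without HFD replicate 3, where its log2 fold change was 2.84. Of 5 mesothelial genes 1 rose, Msln, mesothelin, by 2.22 (SE 0.38, adjusted p = 0.0289, edgeR). Of the 11 seminal vesicle genes 9 were lower on HFD. With all 6 mice, edgeR called no marker of dendritic cells (6 tested), T cells (5), endothelium (5), adipocytes (10), epithelium (8) or smooth muscle (6) in either direction. At an unadjusted p under 0.05 it gave 2 dendritic cell genes higher, 3 adipocyte, 7 epithelial and 4 smooth muscle genes lower, and 0 T cell and 0 endothelial genes. DESeq2 called those numbers of genes after adjustment in each of these lists, and edgeR with total-count scaling called 4 epithelial and 1 smooth muscle gene lower. At an adjusted p under 0.05 by edgeR without NCD replicate 1, 6 of the 10 adipocyte genes were lower on HFD, 1 endothelial gene was higher, and 4 epithelial and 2 smooth muscle genes were lower.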

How the data were processed

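RNA of gWAT from 3 NCD and 3 HFD mice was sequenced after TRIzol extraction with a stranded TruSeq mRNA kit per the labels. The authors deposited raw read counts per gene, listed by NCBI gene identifier, with 1 column per mouse and no normalization. The column of HFD replicate 3 carries the number 4 in its name and in that sample's description. No column lacked a sample (0 columns). The submitters' processing notes name bcl2fastq 2.20.0, Trimmomatic, HISAT2 2.1.0, StringTie 1.3.4d, DESeq2 and the builds mm10 and GRCm38, without roles. The counter, its strand setting and its treatment of reads shared by near-identical copies are not given in the sources used.

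In edgeR 4.0.16 under R 4.3.3, genes of low count were removed by filterByExpr (at least 10 counts, 15 in total), libraries were scaled by TMM, and the diets were compared by the quasi-likelihood functions glmQLFit and glmQLFTest. P-values were adjusted after Benjamini and Hochberg over all genes tested, at a threshold of 0.05. SE was obtained from the log2 fold change and the root of F. The second fit left out NCD replicate 1, and the third used the geometric mean of 8 macrophage reference genes as the effective library size. FPKM used total counts and the union of GENCODE vM21 basic exons, which may differ from lengths the authors would use. Symbols matched 19742 of the 19790 identifiers. Promoter windows came from RefSeq on GRCm38.p6 for 5 of the 7 genes. The edgeR steps were tested on simulated data with known folds.

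Named genes were the 7 members, the 5 genes nearest to Trem2, and of each context list the 2 called genes with the largest rise and the 2 with the largest fall, or, where none was called, the 2 with the largest change. Genes outside that rule are markers a check turned on, or are marked where they are named. The 7 genes, the lists and the tests were chosen with earlier results of these data known. Of the list genes 6 were not found in the table. The labels number the replicates without naming animals, and the study's legends call its points biological replicates. They were taken as separate mice, and p-values measure the spread between these samples. No 2 mice of a diet agreed within sampling noise, with chi-square values of 116 to 3597 for each degree of freedom. Alternatives were no low-count filter, median-of-ratios, upper-quartile and total-count scaling, DESeq2 1.42.0, single reference genes, removal of the seminal vesicle genes, the replicate number as a block, and each mouse left out in turn. The macrophage-relative fit without NCD replicate 1 under other settings and the genes nearest to Spp1 were added with the data in view. Exact permutation tests of 3 against 3 cannot go below a two-sided p of 0.1. Python 3.11.15 and matplotlib 3.10.9 drew the figures.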

Additional observations from a re-analysis of the deposited data

How the results depend on the processing

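The count of 5 of the 7 genes higher on HFD with all 6 mice was unchanged without the low-count filter, with median-of-ratios, total-count or upper-quartile scaling, with DESeq2 and without the 11 seminal vesicle genes. In the whole table, 644 to 864 genes were called higher in the edgeR fits of these settings. DESeq2 called 2153 of the 15241 genes higher, against 850 by edgeR on the same genes. Leaving out 1 mouse at a time gave 0 to 5 genes, with 5 only without NCD replicate 1, and 2 to 7 genes were called in the whole table without each of the others. With the replicate number as a block the count was 0 of the 7, of which 5 had an unadjusted p under 0.05 in edgeR, and 12 genes in all. Same-numbered mice did not deviate together (correlations of deviations -0.05, -0.0306 and -0.00677) and the labels name no shared litter or batch, so the numbers were not taken as pairs. Without NCD replicate 1 the count of 5 became 6 with DESeq2, which added Cd9 (adjusted p = 0.0344). DESeq2 there called 2805 of the 15510 genes higher, against 1665 by edgeR. The count stayed 5 with the block, and was 4 or 5 with 1 HFD mouse left out too. With NCD replicate 2 or 3 left out too, a single NCD mouse remained. Its spread is then taken to equal that of the HFD mice, so no count is given. Relative to the macrophage reference genes the count of 4 became 2 against Adgre1 alone, stayed 4 with the block and ran from 2 to 4 with 1 mouse left out. With 1 mouse left out, 104 to 202 genes of the whole table were called higher on this scale. Without NCD replicate 1 the count of 3 became 5 against Csf1r alone and 2 against Adgre1 alone, where Trem2 had an adjusted p of 0.286 by edgeR, and stayed 3 with the block. Over the 15510 genes, 403 were called higher against Csf1r alone and 110 against Adgre1 alone.

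The log2 fold changes that reversed had not passed the test in the fit they belong to. Cd9 reversed to 0.43 with total counts, 0.13 with the block and 1.17 without NCD replicate 1 (from -1.01 to 1.17 with 1 mouse left out), Fabp3 to 0.46, 0.54 and 1.57 under the same settings (-1.12 to 1.57), and Pmel to 0.44 with total counts, 0.04 without NCD replicate 1 and 0.21 without HFD replicate 3 (-0.37 to 0.21). Cd3e, a T cell gene, reversed to 0.22 with total counts. Tyrobp relative to macrophage genes reversed to -0.16 against Adgre1 alone with all 6 mice, and to -0.17 against Adgre1 alone without NCD replicate 1. The cause was not tested. The count of 6 genes without overlap between the diets ran from 6 to 7. Total counts moved the median gene to 0.45. The number of mice, not depth, limits precision.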
